A study of Mus musculus with 28 samples.

Results

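The Id proteins and the E proteins were followed through 6 genes of the RNA-seq table: Id1, Id2 and Id3, and Tcf3 (encoding E12 and E47, together E2A), Tcf12 (encoding HEB) and Tcf4 (encoding E2-2, not the β-catenin partner TCF7L2). They were chosen by name from the 24089 genes listed. The measurements came from 24 RNA-seq and 4 DNase-seq libraries of naive CD4+ T cells stimulated through CD3 and CD28. The cells were cultured in medium (control), with either cytokine alone (TGF-β or IL-4) or with the pair (TGF-β + IL-4), the last being the mixture that drives Th9 differentiation. They came from WT mice or from mice lacking the TGF-β type I receptor (Tgfbr1 KO). A figure legend of the study describes both as mice with floxed Tgfbr1 alleles and an ER-cre, given oil (WT) or tamoxifen (KO). The labels of the DNase-seq libraries likewise give WT as oil-treated and KO as tamoxifen-treated. The methods also list floxed mice with a Cd4-cre, and the RNA-seq labels name no model. In the DNase-seq libraries an effect of tamoxifen cannot be told apart from one of the deletion. The same holds for the RNA-seq libraries if their mice were treated alike. Each of the 8 RNA-seq groups held 3 libraries (n = 3), and each of the 4 DNase-seq groups (control cells and cells with both cytokines, of either genotype) held 1. The labels number the libraries within a genotype and do not say that a number is a mouse. It was taken as one throughout. The time in culture of the RNA-seq libraries is not given in the sources used here.

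E proteins are basic helix-loop-helix transcription factors that pair with each other or with other helix-loop-helix proteins and bind the E-box, CANNTG. Id proteins have the helix-loop-helix but lack the basic region that touches DNA, so an E protein held by an Id protein cannot bind. In T cells the balance of both families is known for its part in thymic selection and in the choice between effector, memory and regulatory fates, and Id genes are classical targets of signals of the TGF-β superfamily, while Id3 is also induced through the T cell receptor and Egr factors.

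The headings of the 24 value columns conflict with other values of the study, and every RNA result below rests on how this was settled. The study's supplementary data list read counts for 8 of the WT libraries, and the genes with 0 reads in each were matched with the genes at 0 in each column. For 8 of 8 libraries the best column was the one at the library's place in library-number order (99.8% to 99.9% of genes the same, against 72.0% to 85.8% for the next column), and for only 2 of 8 was it the column headed with the library's name. The other 6 headed columns matched at 69.3% to 79.3%. The columns were therefore read by position, with WT before KO and, within each mouse, the cultures in the order medium, TGF-β, IL-4, both cytokines, which gives 4 of 24 columns the same library as their heading. No counts were at hand for the KO columns or for WT mouse 2. Read by position, the median correlation within a culture was 0.9963 in WT and 0.9952 in KO, and with the columns as headed it was 0.9847 and 0.9913. No call on a member listed below held with the columns as headed.

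Read depth is not given with these values. The most frequent ratio between the low values of 2 libraries was used to put each depth relative to 1 library. With WT mouse 3 with both cytokines set to 1, the depths were 0.794 to 1.66. The sum of 8 CD4 T cell markers was 1373 to 1843 RPKM (a read density corrected for gene length and for sequencing depth) in every library, against 14.3 to 36.3 for the CD8 pair, 8.16 to 34.1 for 6 B cell genes and 0.232 to 18.4 for the 5 measured myeloid genes of 6. The other lists summed to 1.25 to 8.20 for 3 NK cell genes, 120.1 to 227.3 for 4 dendritic cell genes, of which Bst2 alone, also expressed by T cells, gave 119.7 to 226.5, and 0 to 21.9 for 2 erythroid genes. Tgfbr1 was at 3.02, 3.25 and 3.31 RPKM in WT control cells, 13.9, 14.0 and 14.5 with TGF-β, 3.69, 3.48 and 3.94 with IL-4, and 17.6, 19.5 and 20.7 with both. In KO cells it was at 2.32, 2.55 and 3.05, at 2.37, 2.42 and 3.24, at 2.92, 3.75 and 3.17, and at 3.45, 5.18 and 3.35 in the same order of cultures. The WT and KO control libraries thus overlapped for a value counted over the whole gene, which does not show which exons were deleted, and the KO libraries with TGF-β lay far below the WT ones. In bulk RNA, fewer cells of a type and less RNA per cell cannot be told apart, here and in all that follows.

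Id1 rose with each cytokine in WT cells, and most with both. It was at 3.14, 3.06 and 2.23 RPKM in WT control cells (mice 1, 2 and 3), at 11.1, 13.2 and 11.6 with TGF-β, at 9.40, 8.84 and 6.81 with IL-4, and at 25.6, 25.5 and 24.1 with TGF-β + IL-4. No library of any WT culture overlapped those of another. How many of all genes separate in this way was not counted, so lack of overlap is given only as a description, here and below. Against control, Id1 rose with TGF-β by a log2 fold change of 1.77 (SE 0.11, adjusted p = 2.74e-05), with IL-4 by 1.29 (SE 0.13, adjusted p = 0.00113) and with both by 2.78 (SE 0.10, adjusted p = 1.43e-07), all in limma's test across all genes on log2(RPKM + 1). The IL-4 call was lost with no filter on low values (adjusted p = 0.0127) and without mouse 1 (0.0323) or mouse 2 (0.0120), the change staying between 1.28 and 1.30. The 8 identified libraries are those of mice 1 and 3, so using them alone is the same fit as without mouse 2. The addition of 1 shrinks the fold of a gene this low, and the ratio of mean RPKM was 4.26, 2.97 and 8.93. A gene was called where the adjusted p was under 0.01 and the fold over 1.5. Cells with both cytokines were also above those with TGF-β alone by 1.01 (SE 0.07, adjusted p = 2.44e-05) and above those with IL-4 alone by 1.49 (SE 0.10, adjusted p = 6.11e-06). The departure of the combined change from the sum of the single ones, their interaction on this log2 scale, was -0.28 (SE 0.16, adjusted p = 0.297) and did not pass.

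In Tgfbr1 KO cells Id1 was at 1.10, 1.10 and 1.19 RPKM in control cells, at 1.24, 2.08 and 1.88 with TGF-β, at 7.15, 9.17 and 9.18 with IL-4, and at 8.48, 7.57 and 8.85 with both. The IL-4 libraries of KO overlapped those of WT, and the KO libraries of the other 3 cultures all lay below the WT ones. Against KO control, Id1 rose with IL-4 by 2.15 (SE 0.10, adjusted p = 3.77e-06) and with both by 2.12 (SE 0.09, adjusted p = 1.14e-05). As ratios of mean RPKM, which the added 1 does not shrink, these were 7.49 and 7.32, against 2.97 and 8.93 in WT. With TGF-β alone it differed by 0.34 (SE 0.12, adjusted p = 1.00), with all 3 libraries above the KO control libraries. KO cells were below WT by 0.83 in control (log2 difference -0.83, SE 0.11, adjusted p = 0.00209), by 2.26 with TGF-β (-2.26, SE 0.12, adjusted p = 3.29e-06) and by 1.49 with both (-1.49, SE 0.08, adjusted p = 8.72e-06), while with IL-4 KO cells differed from WT by 0.03 (SE 0.13, adjusted p = 0.918). The call in control was lost with no filter on low values (adjusted p = 0.0132), with the replicate number as a block (0.0140) and without mouse 1 (0.0526) or mouse 2 (0.0194), the difference staying between -0.83 and -0.75.

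The effect of TGF-β on Id1 differed between the genotypes by -1.43 (SE 0.18, adjusted p = 0.000132) on the log2 scale. The effect of IL-4 differed by 0.85 (SE 0.18, adjusted p = 0.103), which did not pass, and that of TGF-β + IL-4 by -0.66 (SE 0.13, adjusted p = 0.00665). The last call was lost when the mouse within each genotype was a block (adjusted p = 0.0117) and without any 1 of the 3 mouse numbers (adjusted p = 0.0298 to 0.089). It was lost too with a pseudocount of 0.1, where the difference was -0.36 (adjusted p = 0.185). The summed level of the myeloid genes, mostly Lyz2, also varied among these cultures: 3.53 to 6.20 RPKM in WT control, 6.00 to 18.4 with TGF-β, 2.71 to 4.37 with IL-4 and 7.10 to 16.7 with both in WT, and 0.232 to 1.70, 0.957 to 10.1, 0.880 to 4.07 and 2.11 to 4.39 in KO. Itgam, Csf1r, Emr1 and Cd14 stayed at or below 0.746 in every library, and the part of these cells in the Id1 values was not tested.

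**Figure D1:**
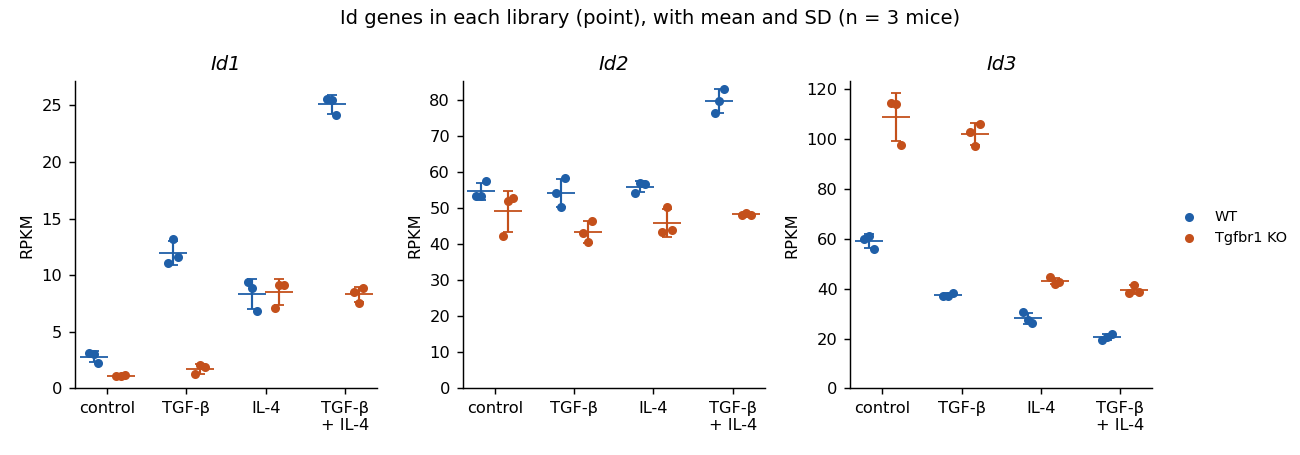
RPKM of Id1, Id2 and Id3 (y axes, linear from 0) in the 4 cultures of WT and Tgfbr1 KO cells; points are libraries, bars the mean and SD of 3. Id1 lay at 24.1 to 25.6 in WT cells with TGF-β + IL-4 and at 7.57 to 8.85 in KO cells, and Id3 lay higher in KO than in WT in every culture.

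Id3 moved the other way. In WT cells it was at 60.1, 61.3 and 56.0 RPKM in control, at 37.2, 37.1 and 38.3 with TGF-β, at 30.7, 27.3 and 26.4 with IL-4, and at 19.6, 20.8 and 21.9 with both. No library of any culture overlapped those of another. Id3 fell with TGF-β (log2 fold change -0.64, SE 0.05, adjusted p = 7.43e-05), with IL-4 (-1.05, SE 0.07, adjusted p = 0.000123) and with both (-1.47, SE 0.06, adjusted p = 3.82e-07). The level with both was below that with TGF-β alone by a called difference (-0.83, SE 0.06, adjusted p = 1.94e-05), while the difference from IL-4 alone (-0.42, SE 0.07, adjusted p = 0.00109) was under the fold of 1.5. The call with TGF-β was lost without mouse 1 (-0.62, adjusted p = 0.011).

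KO control cells held more Id3 than any WT culture, at 114.5, 114.0 and 97.6 RPKM. Id3 was at 102.8, 97.2 and 106.2 with TGF-β, at 44.5, 41.9 and 42.9 with IL-4, and at 38.3, 41.7 and 38.9 with both. The TGF-β libraries overlapped the KO control libraries, and both cultures with IL-4 lay below them. Id3 fell with IL-4 (-1.31, SE 0.07, adjusted p = 6.56e-06) and with both (-1.43, SE 0.08, adjusted p = 3.36e-05), and with TGF-β alone differed by -0.09 (SE 0.07, adjusted p = 1.00). KO cells were above WT in all 4 cultures, by 0.87 in control (SE 0.07, adjusted p = 0.000293), 1.42 with TGF-β (SE 0.05, adjusted p = 2.26e-07), 0.60 with IL-4 (SE 0.07, adjusted p = 0.000431) and 0.90 with both (SE 0.07, adjusted p = 5.26e-05). The IL-4 difference is a fold of 1.52, just past the threshold, and was lost with median-ratio scaling of the libraries (0.57) and without mouse 3 (adjusted p = 0.0119). The control difference was lost without mouse 1 (adjusted p = 0.0139). The effect of TGF-β on Id3 differed between genotypes by 0.55 (SE 0.09, adjusted p = 0.00125), a fold of 1.47 and so not called, that of IL-4 by -0.27 (SE 0.10, adjusted p = 0.522) and that of both by 0.04 (SE 0.10, adjusted p = 0.860).

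Id2 was highest in WT cells with both cytokines, by a fold just short of the threshold. It was at 53.2, 53.2 and 57.4 RPKM in WT control, 54.1, 50.2 and 58.2 with TGF-β, 54.3, 56.9 and 56.5 with IL-4, and 76.3, 79.7 and 83.0 with both. The libraries with both cytokines were above all others and the other 3 cultures overlapped. The difference from control was 0.54 (SE 0.05, adjusted p = 6.44e-05), a fold of 1.45 that missed the threshold of 1.5, and those from TGF-β alone (0.55, SE 0.06, adjusted p = 0.000403) and IL-4 alone (0.50, SE 0.05, adjusted p = 4.74e-05) missed it likewise. In WT cells the term for TGF-β with IL-4 beyond their sum was 0.52 (SE 0.08, adjusted p = 0.00225), again with a fold, 1.43, under the threshold. TGF-β and IL-4 alone differed from control by -0.01 (SE 0.06, adjusted p = 0.915) and 0.03 (SE 0.05, adjusted p = 0.779).

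KO cells held Id2 at 42.4, 52.0 and 52.8 RPKM in control, 43.2, 40.5 and 46.5 with TGF-β, 43.2, 50.2 and 43.9 with IL-4, and 48.1, 48.7 and 48.1 with both. These cultures overlapped KO control in every case. With both cytokines KO cells were below WT by 0.71 (log2 difference -0.71, SE 0.05, adjusted p = 5.74e-05), a called difference. The other cultures differed by -0.16 (control, adjusted p = 0.264), -0.31 (TGF-β, adjusted p = 0.00844) and -0.29 (IL-4, adjusted p = 0.0207), all under the fold threshold, with every KO library below every WT library. The effect of both cytokines differed between genotypes by -0.55 (SE 0.11, adjusted p = 0.00468), a fold under the threshold. Id4, the fourth Id gene, was listed at 0 in every library but 1, a KO library at 0.028.

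Set in order of mean RPKM, Id1 ran from WT TGF-β + IL-4 (25.1) and WT TGF-β (12) through KO IL-4 (8.50), WT IL-4 (8.35) and KO TGF-β + IL-4 (8.30), which overlapped one another, to WT control (2.81), KO TGF-β (1.73) and KO control (1.13). Id3 ran nearly in reverse, from KO control (108.7) and KO TGF-β (102.0), which overlapped, through WT control (59.1), KO IL-4 (43.1), KO TGF-β + IL-4 (39.6), WT TGF-β (37.6) and WT IL-4 (28.2) to WT TGF-β + IL-4 (20.8). Over the 24 libraries, which share mice and cultures, the log2 values of Id1 and Id3 had a Pearson r of -0.94, given as a description.

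Among the E protein genes, Tcf3 and Tcf12 were called in no comparison. Tcf4 was not called where it was tested, which left out every comparison of KO with WT. Tcf3, the most abundant, was at 76.8, 58.6 and 77.9 RPKM in WT control cells, 62.5, 43.3 and 55.6 with TGF-β, 73.2, 70.2 and 78.6 with IL-4, and 52.3, 48.6 and 61.6 with both. In KO cells it was at 67.0, 83.5 and 51.8, at 71.0, 76.9 and 53.0, at 97.7, 85.4 and 98.1, and at 74.4, 63.5 and 68.6 in the same order. The libraries of one culture spread over a wide range, and only KO cells with IL-4 lay above every library of all other cultures. The differences with the lowest adjusted p were those of WT TGF-β + IL-4 from WT IL-4 (-0.45, SE 0.08, adjusted p = 0.00209), of KO from WT with IL-4 (0.34, SE 0.07, adjusted p = 0.0128), of KO from WT with both (0.34, SE 0.10, adjusted p = 0.0264) and of WT TGF-β + IL-4 from control (-0.38, SE 0.12, adjusted p = 0.0269). All were under the fold threshold.

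Tcf12 lay between 6.51 and 10.8 RPKM over the 24 libraries, and the 8 cultures, with means from 7.68 to 9.66, overlapped between every pair of neighbours in their order. Its log2 differences from control were 0.00, -0.11 and -0.08 in WT and 0.05, 0.05 and -0.25 in KO for TGF-β, IL-4 and both, with adjusted p of 0.429 and above. KO cells differed from WT by 0.10 in control, 0.15 with TGF-β, 0.26 with IL-4 and -0.07 with both. The IL-4 difference had the lowest adjusted p of these in limma (0.0673), and every KO library with IL-4 lay above every WT one.

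Tcf4 was the lowest of the members in every culture and reached the minimum mean RPKM of 1 in only 2 fits. In WT cells it was at 0.904, 1.27 and 0.891 RPKM in control, 0.871, 0.783 and 0.982 with TGF-β, 0.851, 0.692 and 0.700 with IL-4, and 1.27, 1.04 and 1.11 with both. In KO cells it was at 0.495, 0.425 and 0.472, at 0.397, 0.465 and 0.405, at 0.286, 0.422 and 0.423, and at 0.379, 0.743 and 0.523. Every KO library lay below every WT library of its culture, at a ratio of means of 0.454, 0.481, 0.504 and 0.482. With no filter on low values the log2 differences were -0.46 (SE 0.08, adjusted p = 0.0276), -0.40 (SE 0.05, adjusted p = 0.00296), -0.34 (SE 0.06, adjusted p = 0.0312) and -0.47 (SE 0.10, adjusted p = 0.0186), none past the fold threshold on a scale where 1 is added to values this low. Tcf4 is known to be strongly expressed in B cells and plasmacytoid dendritic cells. The summed level of the 6 B cell genes was 15 to 23.6 RPKM in WT control against 9.36 to 10.6 in KO control, 11.3 to 13.5 against 8.16 to 10.6 with TGF-β, 12.5 to 24.5 against 12.3 to 13.7 with IL-4, and 15.8 to 34.1 against 15.1 to 26.3 with both. It was thus lower in KO without overlap in control and with TGF-β, and overlapped with IL-4 and with both. Siglech, Itgax and Flt3 were at or below 0.621 in every library, and the part of other cells in the Tcf4 values was not tested.

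**Figure D2:**
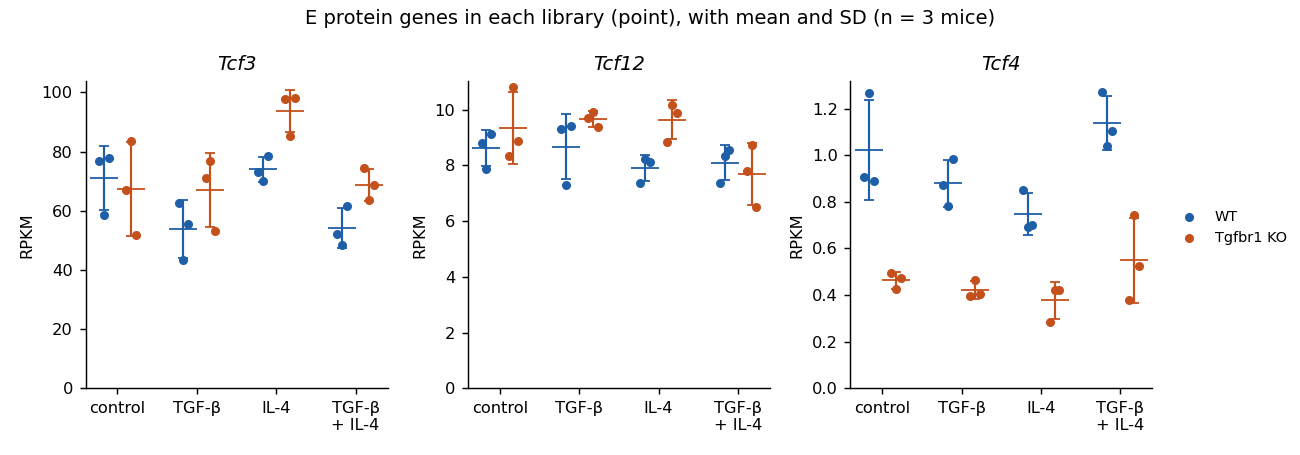
RPKM of Tcf3, Tcf12 and Tcf4 (y axes, linear from 0) in the 4 cultures of WT and Tgfbr1 KO cells; points are libraries, bars the mean and SD of 3. Tcf4 lay at 0.692 to 1.27 in WT and at 0.286 to 0.743 in KO libraries, and Tcf3 in KO cells with IL-4 (85.4 to 98.1) lay above all other libraries.

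Against the background of all genes, members were called as follows. In WT cells 2 of 5 members tested were called with TGF-β, where 5.71% of all genes were, 2 of 5 with IL-4 (1.29% of all genes) and 2 of 6 with both (9.27%), Id1 upward and Id3 downward each time. Id1 and Id3 made 2 of 6 between both cytokines and TGF-β alone (3.03%), and Id1 made 1 of 5 between both and IL-4 alone (9.28%). In KO cells Id1 and Id3 made 2 of 5 with IL-4 (2.51%) and with both (1.92%), and limma called 0 of 5 with TGF-β alone (0.0105%, 1 member at an unadjusted p under 0.05). Between KO and WT the calls were 2 of 5 in control (2.46%), 2 of 5 with TGF-β (9.68%), 1 of 5 with IL-4 (2.99%) and 3 of 5 with both (8.44%). For the interactions they were 0 of 5 for TGF-β with IL-4 in WT (1.77%, 2 members at an unadjusted p under 0.05), 1 of 5 for genotype with TGF-β (4.71%), 0 of 5 for genotype with IL-4 (0.0414%, 2 members at an unadjusted p under 0.05) and 1 of 5 for genotype with both (4.18%). Each of these comparisons shares libraries with others.

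**Figure D3:**
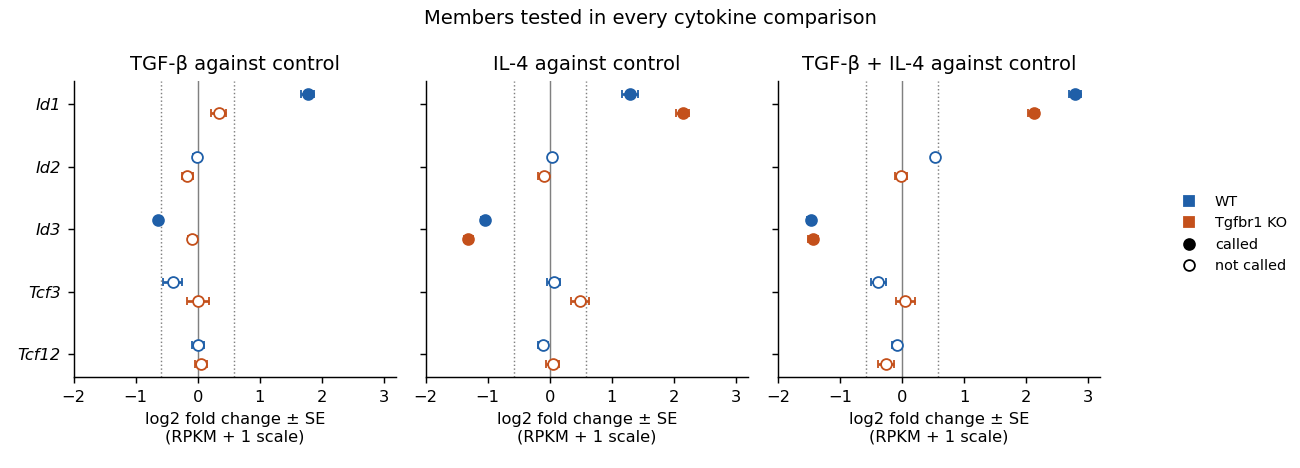
Log2 fold change against control (x axes, log2(RPKM + 1) scale, bars SE) of the 5 members tested in every cytokine comparison, in WT and Tgfbr1 KO cells; filled points were called and dotted lines mark a fold of 1.5. Id1 lies to the right and Id3 to the left in all WT panels, and in KO with TGF-β alone Id1 is at 0.34 and Id3 at -0.09, neither called.

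Because RPKM is per length, the family can also be described as a whole. The 3 Id genes summed to 116.5 ± 1.0 RPKM (SD, n = 3) in WT control, 103.7 ± 4.0 with TGF-β, 92.4 ± 2.4 with IL-4 and 125.5 ± 3.8 with both. Id1 made 2.41% of that sum in control and 20.0% with both, Id3 made 50.7% and 16.5%, and Id2 46.9% and 63.5%. In KO cells the sum was 158.9 ± 7.8 in control and 147.2 ± 7.4 with TGF-β, of which Id3 made 68.4% and 69.4%, and 97.4 ± 3.4 with IL-4 and 96.2 ± 1.6 with both. The ratio of summed Id to summed E protein RPKM was 1.35, 1.73 and 1.31 in WT control, 1.41, 1.96 and 1.64 with TGF-β, 1.16, 1.18 and 1.03 with IL-4, and 1.99, 2.17 and 1.81 with both. In KO it was 2.08, 1.76 and 2.48, then 1.81, 1.60 and 2.46, then 0.889, 1.06 and 0.886, and with both 1.15, 1.34 and 1.27. WT cells with both cytokines were thus above WT control and KO cells with both in every library, and the IL-4 culture was the lowest of each genotype. The libraries of WT with both overlapped those of WT TGF-β, KO control and KO TGF-β. The highest mean ratio was that of KO control, at 2.11 against 1.99 in WT with both. Tcf3 made 88.0% of the E protein sum in WT control, so the ratio carries the wide spread of Tcf3. These are RNA levels and say nothing of the amount of protein.

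**Figure D4:**
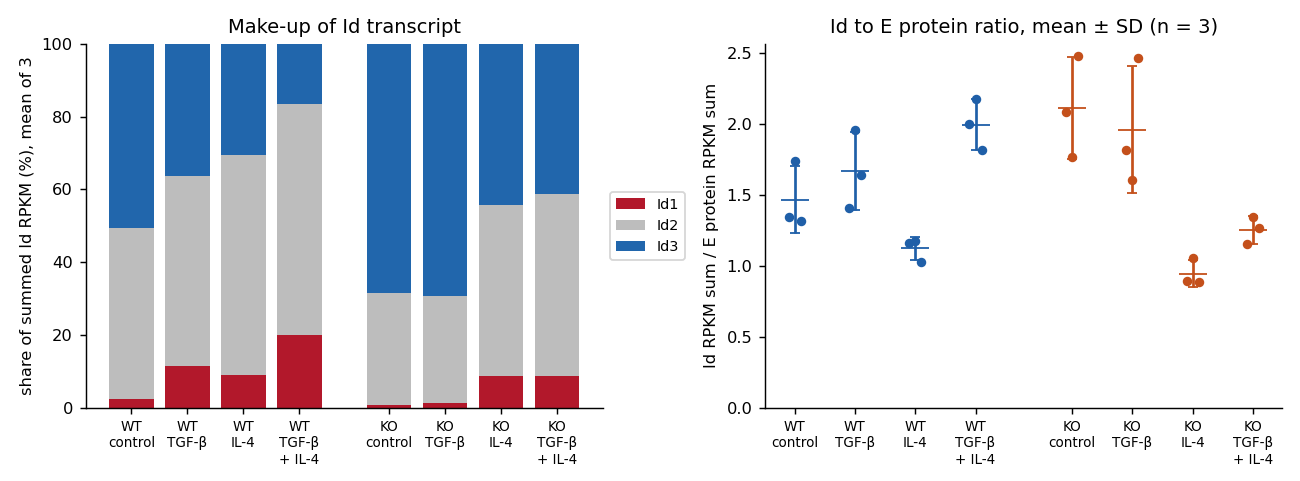
Left, share of the summed Id RPKM made by Id1, Id2 and Id3 (mean of 3 libraries, %); right, ratio of summed Id to summed E protein RPKM (points are libraries, bars mean and SD, axis from 0), by culture and genotype. The Id1 share is 20.0% and the Id3 share 16.5% in WT cells with TGF-β + IL-4, against 0.715% and 68.4% in KO control cells.

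The genes whose pattern over the 24 libraries was most like that of each member were sought among 6782 genes of mean RPKM of at least 5. For Id1 they were Ccr4 (Pearson r 0.97), a chemokine receptor of Th2 and regulatory T cells, Spsb1 (0.96) and Carhsp1 (0.96). For Id3 they were Nrn1 (0.96), Stambpl1 (0.95) and Tmem126a (0.95). For Id2 they were Phactr2 (0.91), Rtn3 (0.91) and Oxsr1 (0.90), for Tcf3 Mybl2 (0.87), Ezh2 (0.86), the histone H3 lysine methyltransferase of the Polycomb complex, and Paxip1 (0.85), and for Tcf12 Mapkap1 (0.82), Taf9 (0.81) and Cyb5r4 (0.80). Libraries of one mouse or culture are not independent, so these are descriptions.

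Of 21 genes known as E protein targets in lymphocytes, 16 were tested, and in WT cells with both cytokines 5 rose and 2 fell, with a list median of 0.27 against 0.03 over all genes tested. Of all genes tested, 9.27% were called in that comparison, 5.71% with TGF-β alone, 1.29% with IL-4 alone and 1.92% in KO cells with both. Foxp3, the factor of regulatory T cells, rose from 5.70 ± 0.45 to 33.7 ± 2.0 RPKM (log2 2.37, adjusted p = 6.41e-08). Socs1, an inhibitor of cytokine signalling, rose from 134.1 ± 3.0 to 250.1 ± 12.6 (0.89, adjusted p = 2.47e-06), and Gata3, the Th2 factor, from 21.2 ± 1.6 to 33.0 ± 0.6 (0.62, adjusted p = 7.87e-05). Foxo1 and Bcl2 also rose, and Gfi1 and Ptcra fell. With TGF-β alone Foxp3 and Foxo1 rose and Gata3 and Gfi1 fell, and with IL-4 alone Gata3, Socs1 and Gfi1 rose and Foxp3 fell, with list medians of -0.02 and 0.04 against 0.01 over all genes in each. In KO cells with both cytokines Gata3, Socs1 and Gfi1 rose and none fell (list median 0.29 against 0.01). With no filter on low values Gfi1 did not pass with IL-4 in WT (adjusted p = 0.0111) or with both in KO (0.0135). The list is described by these counts, and what these genes share with the Id genes beyond the cultures was not tested.

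Among 14 partners and corepressors of E proteins, with Id4, 4 or 5 were tested per comparison. For this list and those that follow, the shares of all genes called were 5.71% with TGF-β, 1.29% with IL-4 and 9.27% with both in WT, and 1.92% with both in KO. Bhlhe40, a repressor of the same protein class, fell with TGF-β from 38.2 ± 1.1 to 21.2 ± 3.1 RPKM (-0.83, adjusted p = 0.000599), and Ldb1, the LIM domain binding protein, rose with both cytokines from 15.5 ± 1.4 to 27.4 ± 1.5 (0.79, adjusted p = 4.83e-05). Tal2, a partner of E proteins, was at 1.90 ± 0.62 in KO control and 0.171 ± 0.077 in KO cells with both, and at 1.49 ± 0.22 in WT control, 0.182 ± 0.089 with IL-4 and 0.418 ± 0.020 with both. It passed the filter on low values in KO only through the control group and was not tested in WT cells with IL-4 or with both. With no filter, a setting chosen after seeing the data, it fell in WT cells with IL-4 (-1.07, adjusted p = 0.00330) and with both (-0.81, adjusted p = 0.000633), and the KO difference did not pass (-1.29, adjusted p = 0.0173). Of 15 BMP and activin receptors and their Smads, 3 to 7 were tested: Smad7, the inhibitory Smad, went from 0.614 ± 0.086 to 1.83 ± 0.11 with TGF-β (0.81, adjusted p = 0.000153) and to 2.10 ± 0.20 with both (0.94, adjusted p = 3.75e-05), and Acvrl1, a type I receptor, with TGF-β from 0.553 ± 0.214 to 1.90 ± 0.26 (0.91, adjusted p = 0.00111). Both passed the filter only through the group where they were high. With no filter these calls held, at adjusted p of 0.000598, 0.000423 and 0.00486, and in the comparisons where the filter had removed both genes Smad7 differed from control by 0.00 in WT cells with IL-4 (adjusted p = 0.999) and by -0.09 in KO cells with both (adjusted p = 0.812), and Acvrl1 by -0.17 and -0.19 (adjusted p = 0.507 in each). Of 5 Egr genes and their Nab corepressors, Egr2 rose in WT cells with both cytokines from 25.7 ± 1.1 to 40.2 ± 2.3 (0.63, adjusted p = 4.83e-05), and Nab2 fell from 24.8 ± 2.3 to 12.03 ± 0.86 (-0.98, adjusted p = 2.22e-05) and, with TGF-β alone, to 14.8 ± 1.5 (-0.71, adjusted p = 0.00105). In WT cells with IL-4 and KO cells with both none of the 5 was called, where 1.29% and 1.92% of all genes were.

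DNase I hypersensitive sites (DHSs), stretches of open chromatin, were taken from the study's lists of peaks in the mm9 build, within the 6 genes and 50 kb on either side. Merged over the 4 lists they came to 68 sites: 8 at Id1, 4 at Id2, 18 at Id3, 10 at Tcf3, 12 at Tcf4 and 16 at Tcf12. In WT cells 58 were in the control list and 50 in that with both cytokines, and in KO cells 44 and 33, in lists that differ in length (44298, 33880, 33665 and 27145 DHSs), so a count says little by itself. Each list is 1 library with no replicate and no depth given, and no test was made. All 6 genes had a DHS at a promoter, within 1000 bp of a transcript start, in all 4 lists, and 30 sites were in all 4. Tcf3 was the steadiest, with 8 of 10 sites in all 4 lists, and Tcf12 the least so, with 10 of 16 sites in 1 list, 8 of them in WT control.

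Each DHS was ranked by fold enrichment within its own list, with 0% as the strongest. Over all DHSs shared by the control and TGF-β + IL-4 lists, 63.3% had a weaker rank with the cytokines in WT and 64.8% in KO, with median shifts of 3.66 and 4.09 percentage points. At Id3 12 of 16 shared sites were weaker in WT (median shift 10.6 points) and 9 of 10 in KO (16.9 points). At Id1 4 of 6 were weaker in WT (1.07 points) and 0 of 3 in KO. The Id1 promoter (chr2:152561771-152562198) ranked at 42.1% in WT control and 46.8% with both cytokines, and at 75.7% and 42.6% in KO, and the Id3 promoter (chr4:135699487-135699913) at 32.9%, 30.5%, 18.8% and 19.6% in the same order.

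Outside the promoters, 4 sites at Id1 and Id3 are described, chosen after their values were seen. A site in an intron of Bcl2l1, 39118 bp downstream of the Id1 start (chr2:152601105-152601467), went from 67.7% in WT control to 28.7% with both cytokines (fold enrichment 4.74 and 6.81) and was in neither KO list. Another, between genes 30260 bp downstream of that start (chr2:152592247-152592589), went from 33.2% to 18.8% (6.93 and 8.13), ranked at 21.4% in KO control and was not in the KO list with both. At Id3, a site between genes 36217 bp upstream (chr4:135662618-135663195) went from 12% to 54.5% in WT (10.1 and 5.03) and from 23.5% to 40.3% in KO, and one 15156 bp downstream (chr4:135716045-135716411) from 10.3% to 32.7% in WT (10.5 and 6.44) and from 24% to 43.2% in KO. The nearest coding gene start was that of Cox4i2 for both Id1 sites and of E2f2 for the last, so which gene a site belongs to is not shown. Further sites moved by over 20 points in WT, 42426 bp upstream of Id3 (34.7% to 71.5%) and 39140 bp upstream of Id1 (31.8% to 59.2%). Of all shared DHSs in WT, 20.0% weakened and 6.97% strengthened by at least 20 points.

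**Figure D5:**
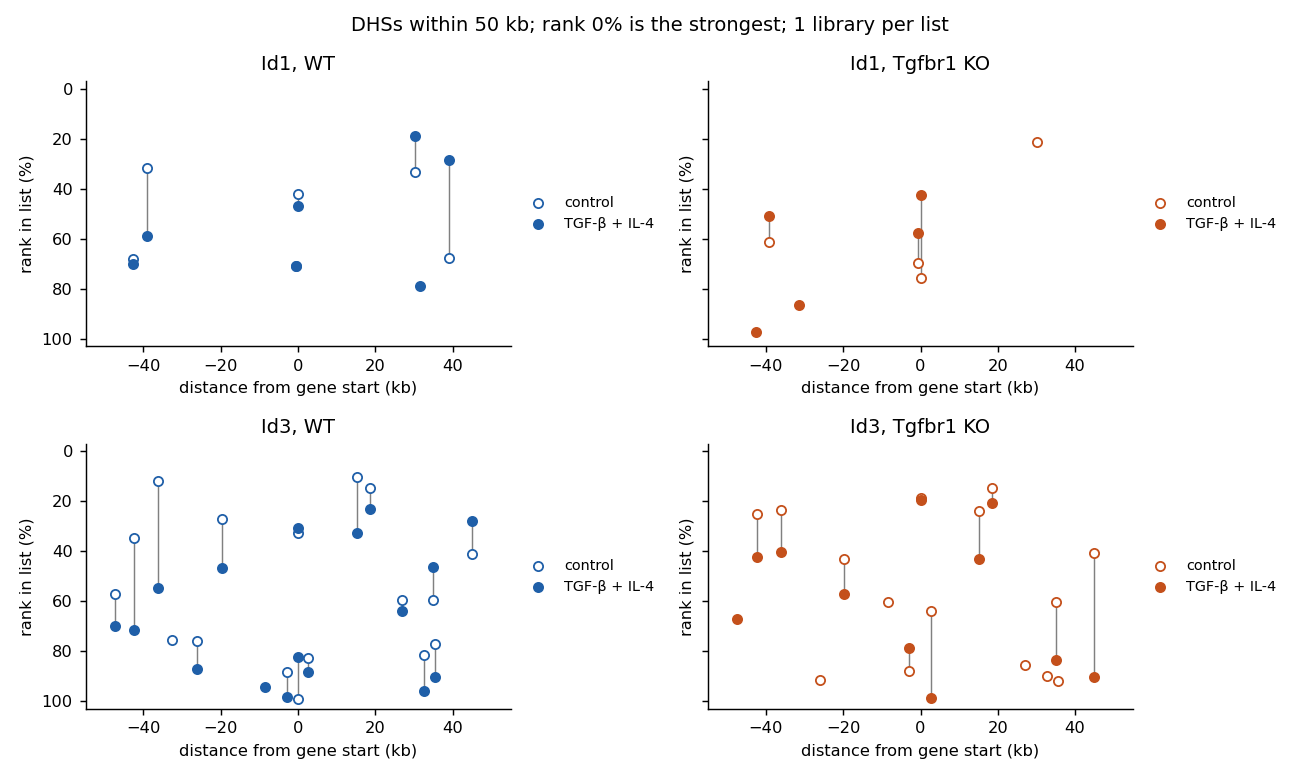
Rank of each DHS within its list (y axis, %, strongest at the top) against its distance from the nearest start of Id1 or Id3 (x axis, kb), in WT and Tgfbr1 KO; open points are control, filled points TGF-β + IL-4, and grey lines join a site found in both. The site 39 kb downstream of Id1 rises from 67.7% to 28.7% in WT and has no point in KO, while the Id3 sites 36 kb upstream and 15 kb downstream drop in both genotypes.

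The sequence at these 4 sites is shown as the 201 bases centred on the summit in the WT TGF-β + IL-4 list, from the plus strand of mm9, to show what the described sites hold. Capitals mark the E-box CANNTG, the Smad box CAGAC and the GC-rich GGCGCC, each sought on both strands, so that the Smad box also reads GTCTG.
Id1 +39 kb, chr2:152601195-152601395: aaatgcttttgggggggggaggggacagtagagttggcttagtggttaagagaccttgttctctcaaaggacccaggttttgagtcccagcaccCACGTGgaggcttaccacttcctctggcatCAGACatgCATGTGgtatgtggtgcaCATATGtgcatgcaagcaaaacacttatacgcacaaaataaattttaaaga
Id1 +30 kb, chr2:152592306-152592506: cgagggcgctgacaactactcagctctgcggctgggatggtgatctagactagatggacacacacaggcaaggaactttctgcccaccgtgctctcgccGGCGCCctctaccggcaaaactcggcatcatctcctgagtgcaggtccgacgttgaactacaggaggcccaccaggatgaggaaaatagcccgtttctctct
Id3 -36 kb, chr4:135662762-135662962: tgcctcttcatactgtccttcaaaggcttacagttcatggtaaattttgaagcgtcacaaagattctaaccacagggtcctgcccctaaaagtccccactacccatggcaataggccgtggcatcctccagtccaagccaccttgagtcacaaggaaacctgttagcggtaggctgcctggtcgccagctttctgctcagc
Id3 +15 kb, chr4:135716126-135716326: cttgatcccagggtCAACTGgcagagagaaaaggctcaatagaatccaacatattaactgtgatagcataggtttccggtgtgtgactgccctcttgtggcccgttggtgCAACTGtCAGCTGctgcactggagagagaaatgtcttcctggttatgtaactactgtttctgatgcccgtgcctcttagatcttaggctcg
The Id1 +39 kb window held 3 E-boxes and 1 Smad box, the +30 kb window 1 GGCGCC, the Id3 -36 kb window none of these motifs, and the Id3 +15 kb window 3 E-boxes, of which 1 was CAGCTG, a form often bound by E proteins. Of all 33880 windows of this kind in the same list, 62.2% held an E-box, 12.9% CAGCTG, 16.1% CACCTG, 41.9% a Smad box and 9.02% GGCGCC. A match of this kind is common, marks no binding site, and its absence says only that these letters are not in the window. None of the 30-base stretches of these windows occurred elsewhere in mm9. Only exact matches were sought, so this does not show whether a window lies in a repeat whose copies differ.

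Of the 6 members, 4 matched the RefSeq promoter table (GRCm38.p6): Id2, Id3, Tcf3 and Tcf12. The 250 bases before the start are shown for the Id genes among them, with the same motifs in capitals, as both genes had a DHS at the promoter in all 4 lists.
Id2, minus strand of chr12:25096093-25096342: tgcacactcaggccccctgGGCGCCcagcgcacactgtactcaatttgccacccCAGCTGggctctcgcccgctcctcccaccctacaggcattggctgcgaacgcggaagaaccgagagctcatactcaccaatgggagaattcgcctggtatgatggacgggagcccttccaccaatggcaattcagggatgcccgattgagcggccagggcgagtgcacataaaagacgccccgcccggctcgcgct
Id3, plus strand of chr4:136143572-136143821: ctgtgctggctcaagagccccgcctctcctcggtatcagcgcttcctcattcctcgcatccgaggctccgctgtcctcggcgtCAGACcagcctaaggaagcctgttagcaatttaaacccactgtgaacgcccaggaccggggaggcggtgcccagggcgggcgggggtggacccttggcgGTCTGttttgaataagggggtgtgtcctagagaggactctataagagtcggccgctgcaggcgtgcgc
The Id2 promoter held 1 E-box, of the form CAGCTG, and 1 GGCGCC, and the Id3 promoter 2 Smad boxes, 1 on each strand, and no E-box. Of all 32851 promoters of this length, 66.2% held an E-box, 13% CAGCTG, 42.2% a Smad box and 9.59% GGCGCC.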

How the data were processed

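RNA-seq (Smart-seq2) and DNase-seq libraries of cultured mouse CD4+ T cells were taken as deposited. The authors mapped reads to mm9 with Bowtie2, removed low-quality and redundant alignments, gave gene levels as RPKM with edgeR and called DHSs per library with MACS (MACS2 in the submitters' processing notes). Versions are not given in the sources used here. The deposited peak lists hold scores, fold enrichment over background, −log10 p and −log10 q values, and read depth is unknown. Value columns were read by library-number order, against their headings.

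Genes averaging 1 RPKM or more over the compared libraries were tested with limma 3.58.1 (trend) on log2(RPKM + 1), with Benjamini-Hochberg adjustment over all genes tested and a call at adjusted p under 0.01 and fold over 1.5. Adjusted p-values measure only the spread between 3 libraries a group. Context lists are described by counts. For each member the 3 genes of highest Pearson r were named. DHSs overlapping by at least 1 bp were merged. Alternatives were the columns as headed, another pseudocount, filter, scaling, threshold and sample set, a replicate block, and each mouse number left out. The fit was tested on simulated data. Members and lists were chosen with earlier results of these data known. Replicate numbers were taken to name the mouse within a genotype; deviations of same-numbered libraries correlated at -0.089 to 0.553 in WT and -0.297 to 0.415 in KO. Id1 and Tcf4 promoters and protein sequences were not used here. A gene of the E protein target list is not reported here and was left out of its counts.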

Additional observations from a re-analysis of the deposited data

Results flagged for a closer look

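The effect of TGF-β on Id1 differed between WT and Tgfbr1 KO cells by -1.43 on the log2 scale in the interaction test (adjusted p = 0.000132 in limma). All 3 libraries with TGF-β were above all 3 control libraries in both genotypes, with a ratio of mean RPKM of 4.26 in WT and 1.53 in KO. In KO the log2 change was 0.34 (SE 0.12) and was not called, where 0.0105% of all genes were. The share of all genes separated in this way was not counted.

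The effect of TGF-β + IL-4 on Id1 also differed between the genotypes, by -0.66 (adjusted p = 0.00665), and this call did not hold under most other settings. On mean RPKM the ratio to control was 8.93 in WT and 7.32 in KO, nearer to each other than on the scale with 1 added, where KO control cells at 1.10 to 1.19 RPKM lie close to the added value.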

How the results depend on the processing

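Of 258 repeats of a log2 fold change, 215 kept their direction and their side of the threshold, 42 kept their direction and lost the call, and 1 reversed, all for Id1, Id2 or Id3. The 215 include 23 with the adjusted p cutoff relaxed to 0.05 on the same fit, which could not lose a call. Repeats with the 8 identified libraries are the same fits as those of WT without mouse 2, and are counted again. With the columns as headed, 0 members were called in each comparison, and the difference between genotypes in the effect of TGF-β + IL-4 on Id1 turned to 0.22 (adjusted p = 0.999). Under that reading the Id to E protein ratio moved to 1.56 in WT IL-4, 1.49 in WT with both, 1.60 in KO control, 1.505 in KO TGF-β, 1.63 in KO IL-4 and 1.54 in KO cells with both cytokines.

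With a mean RPKM of at least 5, which drops Id1 where it is low, the calls were 0 for genotype with TGF-β and 1 each for IL-4 in KO, for both cytokines in KO and for KO against WT control. With no filter they were 1 for WT IL-4 and 1 for KO against WT control. The 8 identified WT libraries, the same fit as without mouse 2, gave 1 for WT IL-4. Median-ratio scaling left 0 for KO against WT with IL-4. The call for genotype with TGF-β + IL-4 went to 0 with all libraries in one fit, median-ratio scaling, no filter and a pseudocount of 0.1. With the replicate block it was 0, and KO against WT control had 1. In the comparisons of KO with WT the block pairs numbers, not mice, and in all others it is the mouse within a genotype; it changed no other count of members called by over 1.5 times. Leaving out 1 mouse number gave 0 each time for genotype with TGF-β + IL-4, 0 to 2 for KO against WT control, 0 to 1 for KO against WT with IL-4, 1 to 2 for WT IL-4 and 1 to 2 for WT TGF-β. DHSs at the members fell to 32 in WT control with lists of equal length, and within 10 kb to 31 (control) and 24 (both cytokines) in WT and to 23 and 16 in KO. The causes were not tested. The DHS lists have 1 library each, so no spread between mice is known for them.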
